A study of Mus musculus with 16 samples.

Results

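The genes described here are the 9 genes of MHC class II antigen presentation named H2-Aa, H2-Ab1, H2-Eb1, Cd74, H2-DMa, H2-DMb1, H2-Oa, H2-Ob and Ciita, out of 16593 genes with a probe on the array. Every probe with one of these symbols was taken, which gave 13 probes: 4 for H2-Ab1, 2 for Cd74 and 1 for each of the others. RNA of whole dorsal skin from 15-day mice of the mixed strain C57/BL6;129Ola was hybridized to 16 Illumina bead arrays. The 4 groups had 4 arrays each, numbers 1 and 2 on slide 1 and numbers 3 and 4 on slide 2. The slide was read from the number that opens each array identifier in the sample descriptions and is not named as a slide there. The Shp2lof group carried Krox20-cre and the floxed allele Shp2fl, the Mek1gof group carried Krox20-cre and Mek1fstop/+, the Double group carried both mutations, and the control group is labelled only as control, so whether it carried the Cre is not stated. Krox20 is an older name of Egr2, so in the mutants recombination is limited to cells that use or used that promoter, while the RNA came from all cells of the skin. Shp2 (Ptpn11) is a tyrosine phosphatase that passes receptor signals to the Ras and ERK pathway, and Mek1 (Map2k1) is the kinase that activates ERK.

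MHC class II molecules present peptides from endocytosed proteins to CD4 T cells. An alpha and a beta chain pair in the endoplasmic reticulum around the invariant chain (Cd74), travel to endosomes where Cd74 is degraded, and exchange its last fragment for a peptide with the help of H2-M, which H2-O restrains. Transcription of the chains, Cd74 and H2-M needs the coactivator CIITA. In resting skin the class II genes are used mainly by Langerhans cells of the epidermis and by dendritic cells and some macrophages of the dermis, and interferon gamma can switch them on in other cells. In whole skin, fewer cells of a type and less RNA per cell cannot be told apart.

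Depth and tissue were checked first. Each array detected 13022 to 13959 of 25697 probes, and array medians of the raw signal lay between 71.3 and 95.9. The mean log2 level of 8 keratinocyte and matrix genes of skin lay between 12.41 and 13.04 on every array. Ptpn11 and Map2k1 did not pass the test in any mutant group against control (adjusted p of at least 0.764 and 0.842), and the place of their probes relative to the altered exons is not stated, so these levels check no genotype. The mean of 12 skeletal muscle genes was 10.23 and 10.18 on Double 1 and 2 and 10.80 and 11.57 on Double 3 and 4, against 11.48 to 12.23 on the control arrays. Xist was high on Double 1 and 2 (9.13 and 10.04), low on Double 3 (5.55) and intermediate on Double 4 (6.96), and the control arrays held 2 of each kind. It read 5.31, 5.09, 6.12 and 9.12 on Shp2lof 1 to 4, and 9.29, 8.82, 5.02 and 5.77 on Mek1gof 1 to 4. The groups and slides were thus not balanced for Xist. The Y-linked gene Eif2s3y read 10.07, 4.52, 10.90 and 4.45 on control 1 to 4, high where Xist was low. It read 8.01 on Shp2lof 4 and 6.77 on Mek1gof 2, which were high for Xist, and 4.39 on Double 4. On these arrays it was not clear which of Xist and Eif2s3y was on, and the cause was not tested. Whether each sample came from its own animal is not labelled, so a p-value here covers the spread between samples, which may be technical. Each group kept the same places on both slides, and place and group cannot be told apart.

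CIITA acts through proteins bound to short elements before class II genes, of which the X box and the Y box are the best known. The RefSeq promoter table (GRCm38.p6, 250 bases before to 50 bases after each start) held 6 of the 9 members, and the windows of 5 of them are shown because they place these elements next to each other. Capitals mark the letters GNAAC (a core of the X box, N being any base) and, 24 to 27 bases on, GATTGG (the core of the Y box, an inverted CCAAT).
H2-Aa, chr17:34287855-34287916, minus strand: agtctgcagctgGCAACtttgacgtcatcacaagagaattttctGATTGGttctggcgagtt
H2-Eb1, chr17:34305764-34305824, plus strand: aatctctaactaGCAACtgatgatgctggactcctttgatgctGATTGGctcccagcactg
H2-DMb1, chr17:34153085-34153146, plus strand: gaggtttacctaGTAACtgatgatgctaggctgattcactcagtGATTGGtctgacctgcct
H2-Oa, chr17:34092291-34092352, plus strand: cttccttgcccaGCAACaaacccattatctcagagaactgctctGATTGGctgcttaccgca
H2-Ob, chr17:34238806-34238864, plus strand: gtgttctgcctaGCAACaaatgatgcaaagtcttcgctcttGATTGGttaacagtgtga

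GNAAC followed by GATTGG on the gene's strand, with 10 to 40 bases between them, occurred in 0.865% of 32851 RefSeq promoters and in 1.69% on either strand. GNAAC alone occurred in 84.8% and GATTGG alone in 16.1%, both strands counted. The letters and the spacing were chosen after these sequences had been read. The 2 entries of H2-DMa did not hold the pair in these letters. A match describes the sequence only. The H2 genes lie on chromosome 17, Ciita on chromosome 16 and Cd74 on chromosome 18.

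Of the 13 probes 11 passed the detection filter, a detection p below 0.05 on at least 4 of 16 arrays, and they belonged to 7 genes. H2-Aa, H2-Ab1, H2-Eb1, Cd74, H2-DMa and H2-DMb1 were detected on all 16 arrays. Ciita was detected on all 4 Shp2lof arrays, 2 of 4 Mek1gof arrays, 2 of 4 Double arrays and all 4 control arrays. The H2-O genes stayed at the background: H2-Oa, the alpha chain of the inhibitor of H2-M, was detected on 1 array (Mek1gof 1) with log2 levels between 4.43 and 5.11, and H2-Ob, its beta chain, on 0 arrays with levels between 4.29 and 4.59. H2-O is best known from B cells. Of 6 B cell genes on the array Cd79a and Pax5 were detected on 0 arrays, Cd79b and Cd22 on 2, Ms4a1 on 3, and only Blnk was tested. All levels below are background-corrected, quantile-normalized log2 signals, and levels of different probes are not compared with each other.

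No class II gene passed the threshold, a Benjamini-Hochberg adjusted p below 0.05 over 10232 genes by limma, in any of 7 comparisons. In Shp2lof against control 0 of 7 passed, against 2.55% of all genes tested, and 0 had an unadjusted p below 0.05 (15.7% of all genes). In Mek1gof against control the counts were again 0 of 7 (0.508%) and 0 unadjusted (9.54%), and in Double against control 0 of 7 (3.88%) and 2 unadjusted (20.8%). The 95% confidence intervals reached 0.33 (H2-DMa) to 0.71 (H2-Eb1) to either side of a difference between 2 groups. For the interaction of the 2 alleles they were wider, 0.46 to 1.00 to either side. In a simulated Double against control comparison 32% of genes changed by 0.5 on the log2 scale were recovered, 66% of those changed by 0.8 and 92% of those changed by 1. The changed genes were taken at random, and the simulated noise had no slide effect and no wider spread in Double skin. These shares therefore need not hold for the class II genes.

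**Figure D1:**
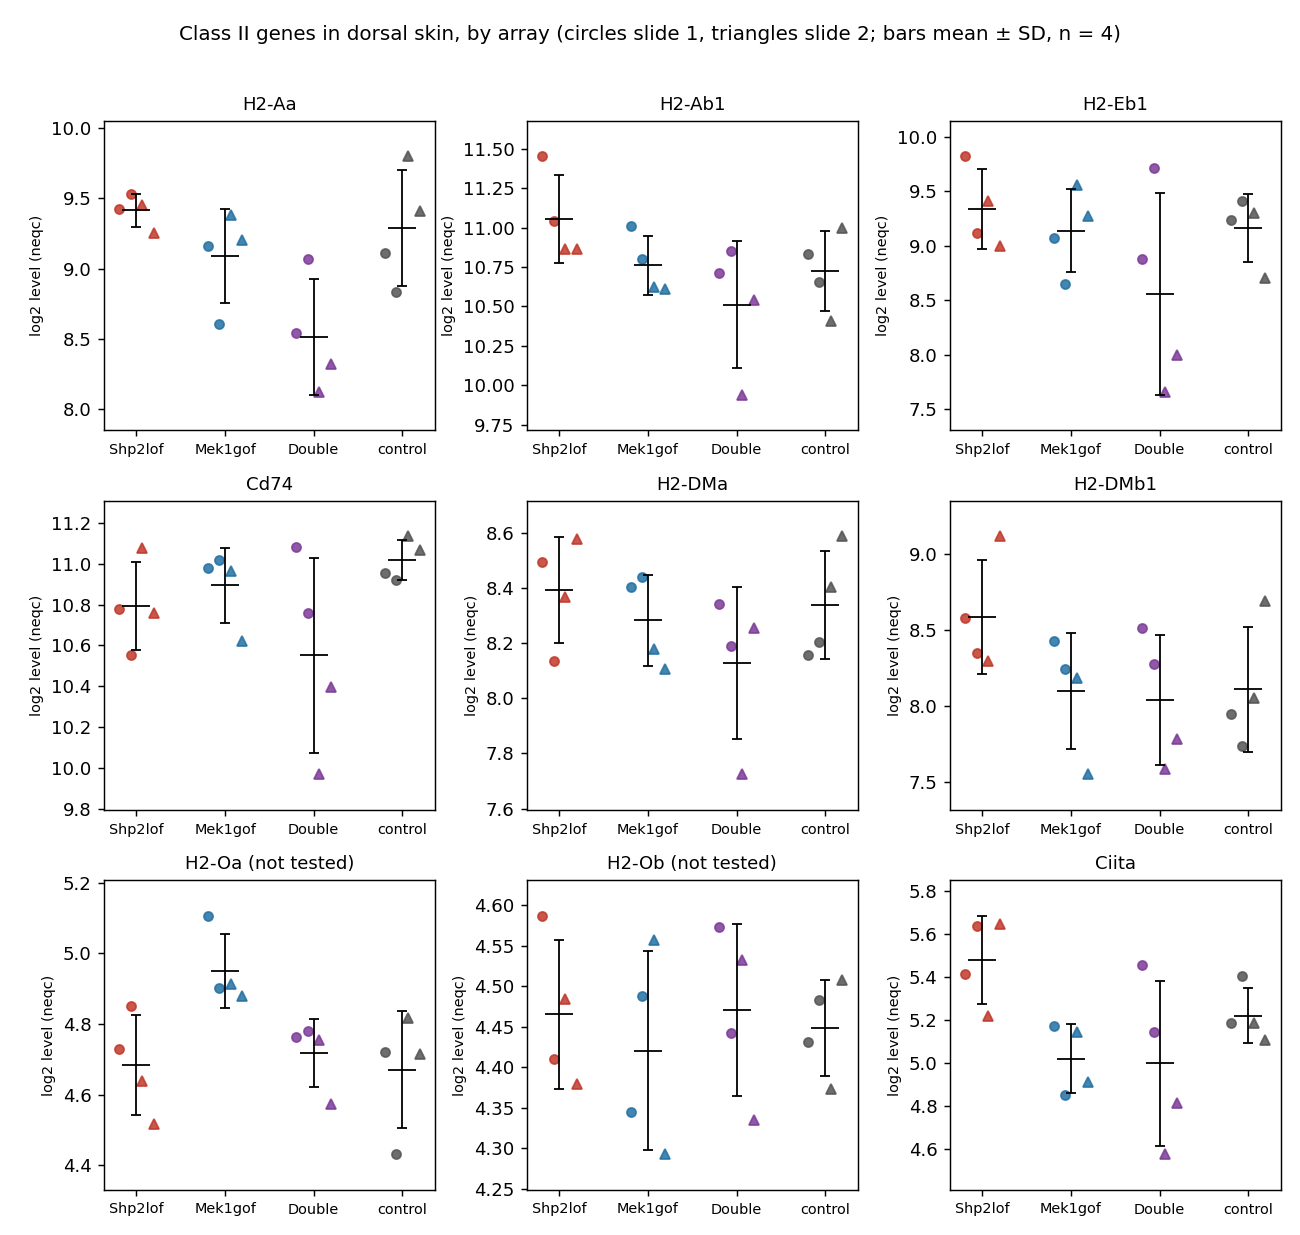
Log2 levels (vertical axes) of the 9 class II genes on the 4 arrays of each group (horizontal axes), with circles for slide 1, triangles for slide 2 and black bars for the mean ± SD. Among the Double arrays both triangles lie below both circles for H2-Aa, H2-Ab1, H2-Eb1, Cd74, H2-DMb1 and Ciita, and every mutant group overlaps the control group for the 7 tested genes; vertical scales differ between panels.

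H2-Aa encodes the alpha chain of I-A, the class II molecule that both parent strains make. Its log2 levels were 9.42, 9.54, 9.45 and 9.26 in Shp2lof skin, 9.16, 8.61, 9.38 and 9.20 in Mek1gof skin, and 8.54, 9.07, 8.12 and 8.32 in Double skin, against 9.11, 8.83, 9.80 and 9.41 in control skin. All 4 Double arrays lay below all 4 Shp2lof arrays, and 1 of them (Double 2) lay inside the control range. The Double minus control difference was -0.78 ± 0.22 (SE, n = 4 each, 1.72-fold lower, adjusted p = 0.0559), just outside the threshold. The Double minus Shp2lof difference was -0.91 ± 0.22 (1.87-fold lower, adjusted p = 0.0547). The first of these passed when Mek1gof 2 or Double 2 was left out (adjusted p = 0.0436 and 0.0329), and the second when Mek1gof 2, Double 2, control 2 or control 3 was left out (0.0477, 0.0191, 0.0497 and 0.0457). Shp2lof minus control and Mek1gof minus control were 0.13 ± 0.22 and -0.20 ± 0.22 (adjusted p = 0.836 and 0.840).

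H2-Ab1 encodes the beta chain of I-A and was read by 4 probes, of which the brightest stood for the gene. That probe had levels of 11.45, 11.04, 10.86 and 10.86 in Shp2lof skin, 11.01, 10.80, 10.62 and 10.61 in Mek1gof skin, and 10.71, 10.85, 9.94 and 10.54 in Double skin, against 10.83, 10.66, 10.41 and 10.998 in control skin. The 4 Double arrays lay just below the 4 Shp2lof arrays, and every mutant group overlapped the control arrays. The differences from control were 0.33 ± 0.19, 0.04 ± 0.19 and -0.21 ± 0.19 in Shp2lof, Mek1gof and Double skin (adjusted p = 0.428, 0.980 and 0.567). The Double minus Shp2lof difference was -0.54 ± 0.19 (adjusted p = 0.216).

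The 4 H2-Ab1 probes differed in the sign of their differences. From the brightest to the dimmest they gave Shp2lof minus control differences of 0.33, 0.14, 0.03 and -0.16, and Double minus control differences of -0.21, -0.18, -0.34 and 0.05. Across the 16 arrays the brightest probe followed the third (Pearson's r = 0.826) but not the dimmest (r = 0.0387), so the order of the groups depends on the probe. The 2 Cd74 probes followed each other (r = 0.861) and gave Double minus control differences of -0.47 and -0.55. When each of the 11 kept probes was tested by itself over 13765 probes, 0 of 11 passed in each comparison.

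**Figure D2:**
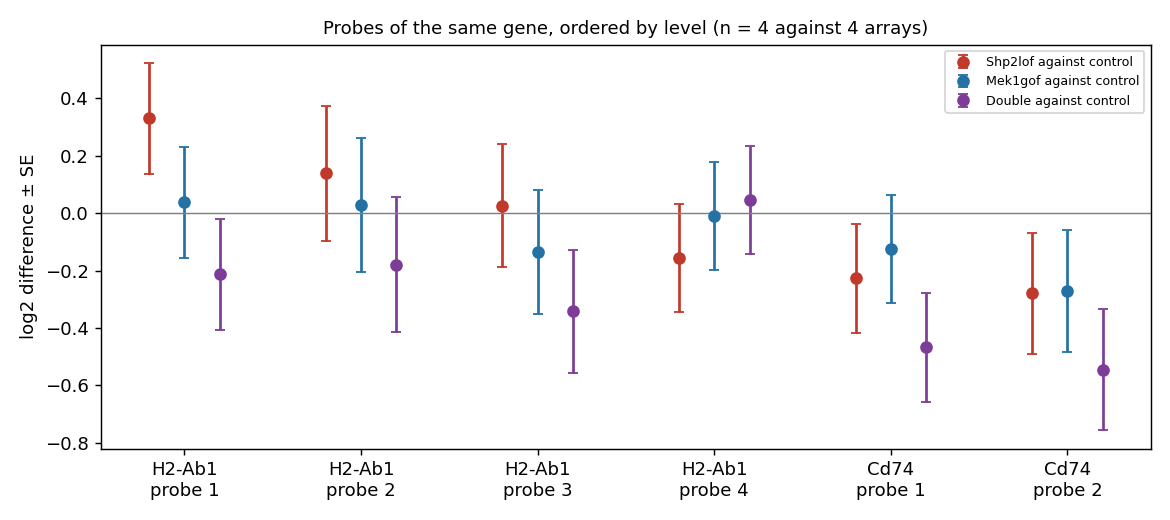
Log2 differences from control (vertical axis, ± SE) for each of the 4 H2-Ab1 probes and 2 Cd74 probes, ordered from the brightest to the dimmest within a gene, for Shp2lof, Mek1gof and Double skin (n = 4 arrays each). The fourth H2-Ab1 probe reads -0.16 in Shp2lof and 0.05 in Double skin, opposite in sign to the first, while both Cd74 probes lie below 0 in all 3 groups.

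H2-Eb1 encodes the beta chain of I-E. Its levels were 9.82, 9.12, 9.41 and 8.997 in Shp2lof skin, 9.07, 8.65, 9.55 and 9.27 in Mek1gof skin, and 8.88, 9.71, 7.65 and 7.997 in Double skin, against 9.23, 9.41, 9.30 and 8.71 in control skin. The Double group spanned from the second highest to the lowest of the 16 arrays, with an SD of 0.92 against 0.31 in control skin. The Double minus control difference was -0.60 ± 0.34 (adjusted p = 0.321), and those of Shp2lof and Mek1gof skin were 0.17 ± 0.34 and -0.03 ± 0.34.

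The partner chain of I-E was not detected. Both parent strains carry a class II haplotype of the b type in which the alpha chain gene H2-Ea has lost its promoter and no I-E reaches the cell surface. The H2-Ea probe was detected on 0 of 16 arrays, with log2 levels between 4.34 and 4.88, in all 4 groups alike. H2-Eb2 and H2-DMb2, further genes of the locus, were detected on 1 and 0 arrays. None of the member probes split the 16 arrays into separate high and low sets: the widest gap between neighbouring levels was 0.65 (H2-Eb1, 2 arrays below it), and 0 of the 34 probes (0.247% of 13765) with a gap over 1 and at least 3 arrays on each side belonged to a member.

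Cd74 encodes the invariant chain. Its brighter probe read 10.78, 10.55, 11.08 and 10.76 in Shp2lof skin, 10.98, 11.02, 10.96 and 10.62 in Mek1gof skin, and 11.08, 10.76, 9.97 and 10.40 in Double skin, against 10.95, 10.92, 11.13 and 11.07 in control skin. The control arrays lay close together (SD 0.10), and below all of them lay 3 Shp2lof arrays, 1 Mek1gof array and 3 Double arrays. The difference from control was -0.47 ± 0.19 in Double skin (1.38-fold lower, adjusted p = 0.169, and 0.0445 without Double 1), -0.23 ± 0.19 in Shp2lof skin (adjusted p = 0.607) and -0.12 ± 0.19 in Mek1gof skin (adjusted p = 0.906). Cd74 was the only one of the 7 tested members below control in Shp2lof skin.

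H2-DMa and H2-DMb1 encode the chains of H2-M, the peptide exchange factor. H2-DMa read 8.50, 8.13, 8.37 and 8.58 in Shp2lof skin, 8.40, 8.44, 8.18 and 8.11 in Mek1gof skin, and 8.34, 8.19, 7.72 and 8.26 in Double skin, against 8.16, 8.21, 8.40 and 8.59 in control skin. Its differences from control lay within 0.21 of 0 in the 3 mutant groups (adjusted p of at least 0.462), less than the spread between arrays. H2-DMb1 read 8.58, 8.35, 8.29 and 9.12 in Shp2lof skin, 8.43, 8.24, 8.19 and 7.55 in Mek1gof skin, and 8.52, 8.27, 7.59 and 7.79 in Double skin, against 7.95, 7.74, 8.06 and 8.69 in control skin. It had the largest positive difference of the members in Shp2lof skin, 0.47 ± 0.25 (95% interval -0.05 to 1.00, adjusted p = 0.373), while its Mek1gof and Double differences from control were -0.01 and -0.07.

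Ciita encodes the coactivator that class II transcription depends on. Its levels were 5.42, 5.64, 5.22 and 5.65 in Shp2lof skin, 5.17, 4.85, 5.14 and 4.91 in Mek1gof skin, and 5.46, 5.15, 4.58 and 4.82 in Double skin, against 5.19, 5.41, 5.19 and 5.11 in control skin. These are near the background, where background correction with an offset shrinks differences. The differences from control were 0.26 ± 0.17, -0.20 ± 0.17 and -0.22 ± 0.17 in Shp2lof, Mek1gof and Double skin (adjusted p = 0.490, 0.771 and 0.476). All 4 Mek1gof arrays lay below all 4 Shp2lof arrays (difference -0.46 ± 0.17, adjusted p = 0.214), as did 4.13% of all genes.

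**Figure D3:**
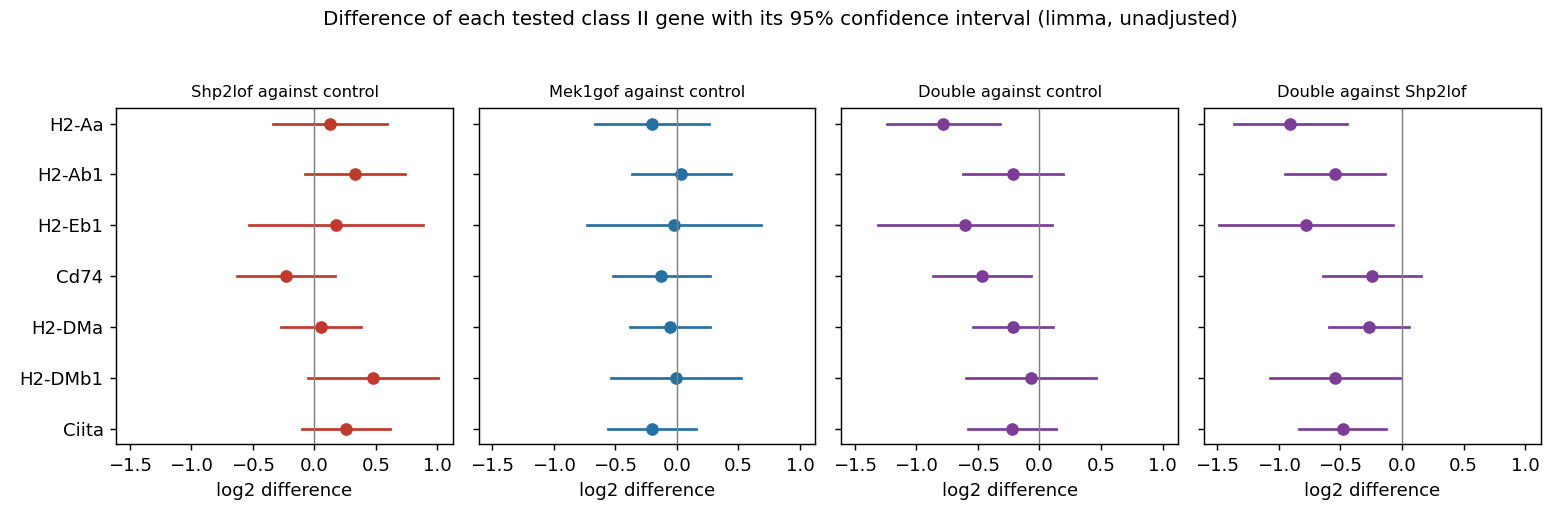
Log2 differences (horizontal axes) of the 7 tested class II genes with unadjusted 95% confidence intervals from limma, for Shp2lof, Mek1gof and Double against control and for Double against Shp2lof (n = 4 arrays each). In the 2 Double panels every point lies left of 0, with H2-Aa at -0.78 and -0.91. Several intervals there cross 0, among them H2-DMb1 against control (upper end 0.46) and Cd74 against Shp2lof (upper end 0.16). The Mek1gof points lie around 0.

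Over the 7 tested members the median difference from control was 0.17 in Shp2lof skin (6 of 7 above 0, median of all genes 0.02), -0.06 in Mek1gof skin (1 of 7 above 0, and 0 of 7 without normalization, all genes 0.02) and -0.22 in Double skin (0 of 7 above 0, all genes 0.03). Within slide 1 the Double minus control median was 0.00429, with 3 of 7 below 0, and Cd74 lay below control in both Shp2lof and Double skin. Double minus Shp2lof gave 7 of 7 below 0 with a median of -0.54 (all genes 0.01). With the mean level of 4 leukocyte genes as a covariate 4 of 7 were below 0 there, with a median of -0.20 and with Cd74, H2-DMa and H2-DMb1 at 0.24, 0.18 and 0.23. That leukocyte level was higher on all 4 Shp2lof arrays (9.07 to 9.57) than on any other array (at most 9.05). The covariate can therefore hardly be separated from the Shp2lof group, here and in the interaction. On slide 1 alone 6 of 7 were below 0 in Double minus Shp2lof, with Cd74 at 0.25. With both slides together and no covariate, 0 of 7 passed in Double minus Shp2lof (0.968% of all genes). In that fit 5 of 7 had an unadjusted p below 0.05 (12.8%). In 2, H2-Aa and H2-Ab1, the groups did not overlap, with Double lower (3.33%). Double minus Mek1gof gave a median of -0.25 with 0 of 7 past the threshold (0.283%) and 1 unadjusted (9.85%), and Mek1gof minus Shp2lof a median of -0.29 with 0 of 7 (2.76%) and 1 unadjusted (12.8%). The interaction of the 2 alleles, the Shp2 effect with the Mek1 allele minus that without it, was below 0 for 7 of 7 members (median -0.54, all genes -0.01; 4 of 7 and -0.003 with the leukocyte covariate), with 0 of 7 past the threshold (0.088%) and 2 unadjusted (7.17%). These comparisons share arrays, so their directions are not independent of each other. Without normalization the median of all genes shifted to -0.12, -0.11 and -0.15 in Mek1gof against control, Double against control and Double against Shp2lof, and all 7 members lay below that median in each of these. With normalization 6 of 7 lay below the median of all genes in Mek1gof against control, and 7 of 7 in Double against control and Double against Shp2lof.

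The low values in Double skin were those of the slide 2 arrays, Double 3 and 4. These arrays also differed from Double 1 and 2 in Xist and in the skeletal muscle level. With 2 arrays on each slide, slide and these traits cannot be told apart. The mean of the 7 members, relative to the 16 arrays, was 0.02 and 0.09 on Double 1 and 2 (slide 1), against 0.01 and -0.03 on control 1 and 2. On slide 2 it was -0.83 and -0.47 on Double 3 and 4, against 0.13 and 0.17 on control 3 and 4. Double 3 was the lowest of all 16 arrays for 6 of the 7 members. H2-Aa differed from control by -0.17 on slide 1 and -1.39 on slide 2, H2-Eb1 by -0.03 and -1.18, and Cd74 by -0.02 and -0.92. H2-DMb1 even changed sign, with 0.55 on slide 1 and -0.69 on slide 2. For some members part of the change between slides lay in the control arrays. From slide 1 to slide 2 the control mean of H2-Aa rose from 8.97 to 9.61, and its Double mean fell from 8.80 to 8.22. For H2-DMb1 the control mean rose from 7.85 to 8.37, and the Double mean fell from 8.40 to 7.69. The control means of H2-DMa and Cd74 also rose, while those of H2-Ab1, H2-Eb1 and Ciita fell.

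Differences from control were then compared between the slides. The change of the Double minus control difference between slides (slide 2 minus slide 1, a test added after the data were seen) was -1.22 ± 0.32 for H2-Aa (adjusted p = 0.0555), -0.90 ± 0.28 for Cd74 (adjusted p = 0.0940) and -1.24 ± 0.39 for H2-DMb1 (adjusted p = 0.101). By this test 0 of 7 members passed, against 2.63% of all genes, and 5 had an unadjusted p below 0.05 (19.3% of all genes). The same test for Shp2lof and Mek1gof gave 0 of 7 each (0.00977% and 0.684% of all genes), with 1 and 2 members at an unadjusted p below 0.05 (5.93% and 15.9% of all genes). In a fit of slide 2 alone H2-Aa (adjusted p = 0.00259), H2-Eb1 (adjusted p = 0.0154) and Cd74 (adjusted p = 0.0259) passed as lower in Double skin (3 of 7, against 6.37% of all genes), and on slide 1 alone 0 passed. On slide 2 alone H2-Aa and H2-Eb1 were also lower in Double than in Shp2lof skin (-1.13 and -1.38, 2.71% of all genes) and than in Mek1gof skin (-1.07 and -1.59, 0.743% of all genes). Each slide holds 2 arrays of a group. In Shp2lof skin 4 members were above control on both slides and Cd74 was below it on both.

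**Figure D4:**
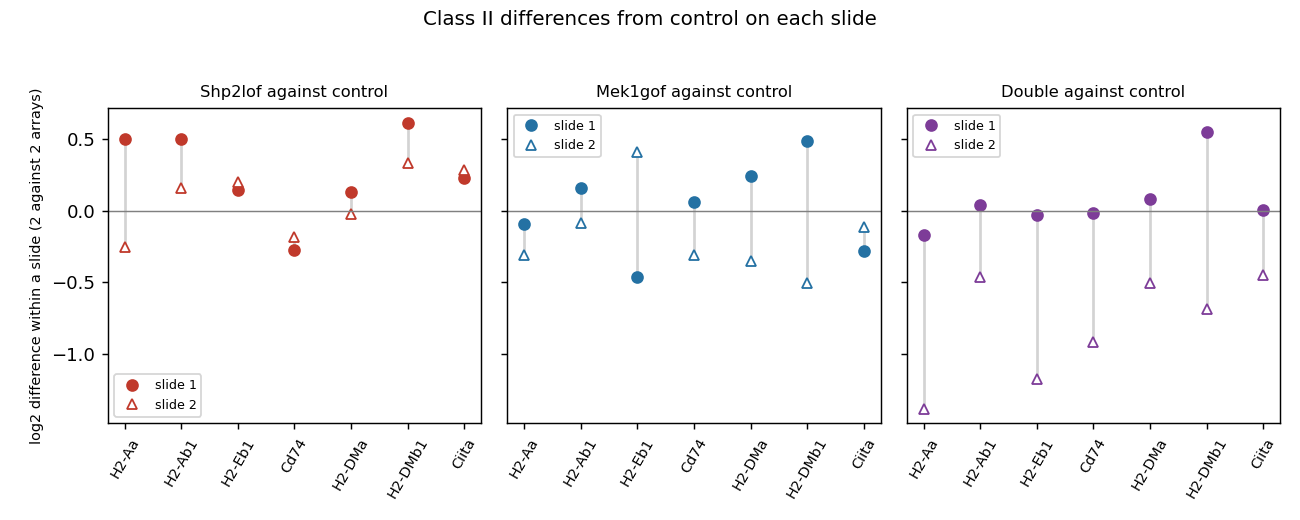
Log2 differences from control (vertical axis) of the 7 tested class II genes within slide 1 (filled circles) and within slide 2 (open triangles), 2 arrays against 2, for each mutant group. In Double skin the slide 2 values lie between -0.45 and -1.39 and the slide 1 values between -0.17 and 0.55.

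Genes of antigen-presenting and T cells were read on the same arrays. Cd207, which encodes langerin of Langerhans cells, read 6.69, 6.35, 6.43 and 6.27 in Shp2lof skin, 7.03, 6.26, 6.14 and 5.99 in Mek1gof skin, and 7.01, 6.58, 5.12 and 5.33 in Double skin, against 6.54, 6.16, 6.08 and 6.81 in control skin. Double 3 and 4 were thus the lowest of the 16 arrays for Cd207 as well, with Double minus control differences of 0.44 on slide 1 and -1.22 on slide 2. Cd3e, a chain of the T cell receptor complex, showed the same split, with Double minus control differences of 0.40 on slide 1 and -1.06 on slide 2. The mean level of 4 Langerhans cell genes was 7.77, 7.60, 6.98 and 7.06 on Double 1 to 4, against 7.24 to 7.69 in control skin, and that of 5 T cell genes 6.38, 6.32, 5.62 and 5.51, against 5.70 to 6.24. The macrophage gene Adgre1 read 8.10, 7.99, 8.09 and 8.01 on the Double arrays, against 7.62, 7.57, 8.27 and 8.68 on the control arrays. Its Double minus control difference was 0.45 on slide 1 and -0.42 on slide 2, and that of Lyz2, another macrophage gene, 0.22 and -0.70. For Adgre1 this change lay in the control arrays, with slide means of 7.59 and 8.47, against 8.04 and 8.05 in Double skin. For Cd207 it lay in the Double arrays, with slide means of 6.79 and 5.23, against 6.35 and 6.44 in control skin. Of the Langerhans, macrophage, T cell and leukocyte lists 0 of 4, 0 of 13, 0 of 5 and 0 of 4 tested genes passed in Double against control (3.88% of all genes). Itgax and Ptprc, defining markers of dendritic cells and of all leukocytes, were detected on 0 of 16 arrays, so those cells are represented only by other genes. The part of these cells in the class II values was not tested. With the leukocyte covariate the median Double minus control difference of the members was -0.20 in place of -0.22. The mean of those 4 leukocyte genes was 8.60 in Double and 8.65 in control skin, so this covariate could hardly shift that difference.

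**Figure D5:**
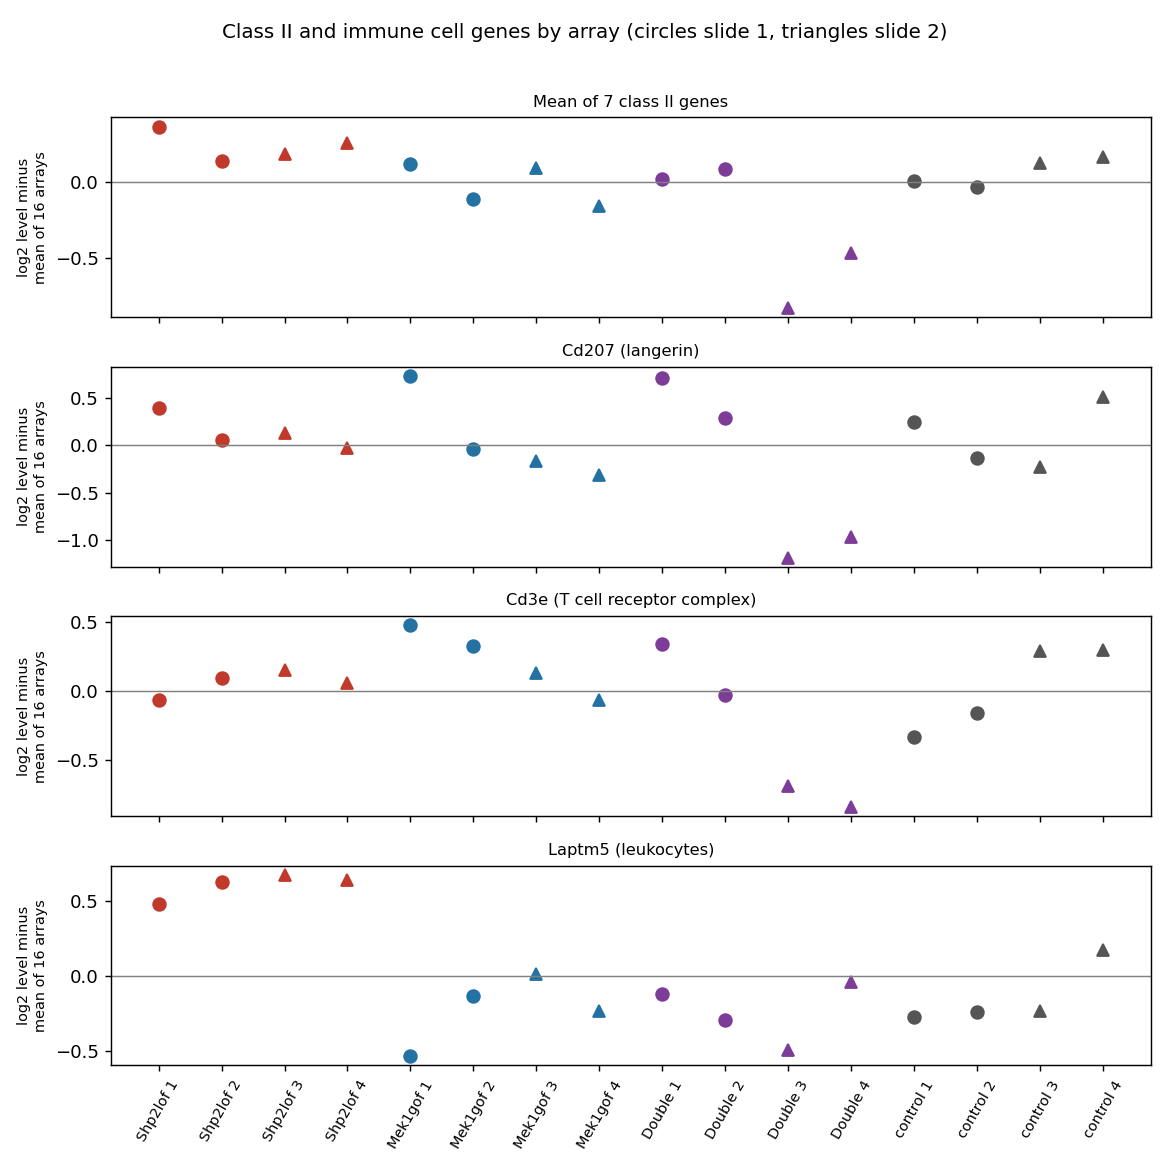
Log2 level minus the mean of 16 arrays (vertical axes) for the mean of the 7 tested class II genes, Cd207, Cd3e and Laptm5 on each array (horizontal axis; circles slide 1, triangles slide 2). Double 3 and Double 4 lie lowest for the class II mean (-0.83 and -0.47), Cd207 and Cd3e, and the 4 Shp2lof arrays lie highest for Laptm5.

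Class II genes were also compared with each other from array to array within groups. With each group's mean removed, all 21 pairs of the 7 members had a Pearson's r above 0, with a median of 0.495, the lowest for H2-Eb1 with H2-DMb1 (0.119) and the highest for H2-DMa with H2-DMb1 (0.789). Double 3 carried much of this: without it 3 of the 21 pairs lay below 0 (H2-Eb1 with H2-DMa at -0.217, H2-Eb1 with H2-DMb1 at -0.0563 and H2-Aa with H2-DMa at -0.0276) and the median was 0.261. Among 10225 other genes, Cd207 ranked 17th by r with the mean of the members (r = 0.844 over 16 arrays), Cd3e 223rd (r = 0.732), and the macrophage genes Lyz2 and Adgre1 far lower (r = 0.295 and 0.0869). The 10 most alike were Elovl5 (a fatty acid elongase, r = 0.921), Pyroxd1, Hsd17b11, Zfp12, Gm94, Cers5, Dpep2, Zfx, Gsdmc2 and Trim23, the last with r = 0.859. Before the group means were removed Elovl5 had r = -0.0026 and Cers5 r = 0.0786. Without Double 3, the most extreme array, Elovl5 and Pyroxd1 were still at 0.898 and 0.921, and Zfp12 dropped to rank 84. These are descriptions over arrays that share slides and normalization.

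The rest of the pathway was read from lists of known genes. In Shp2lof skin 1 of 10 class II transcription factors and 4 of 10 interferon gamma response genes rose, and 0 of 7 class II genes passed; whether the lists differ was not tested. Irf1, a transcription factor of the interferon gamma response that binds a promoter of Ciita, read 9.95, 10.16, 9.96 and 10.37 in Shp2lof skin, against 8.92, 8.95, 9.11 and 9.07 in control skin. Irf1 rose by 1.10 ± 0.14 in Shp2lof skin (adjusted p = 0.000247), the only one of 10 tested class II transcription factors to pass. Against Shp2lof skin Irf1 was lower by 1.33 in Double skin (log2 difference -1.33 ± 0.14, adjusted p = 5.19e-05) and by 1.17 in Mek1gof skin (-1.17 ± 0.14, adjusted p = 0.000103). Of 10 interferon gamma response genes 4 rose in Shp2lof skin: the GTPase genes Igtp (1.26 ± 0.28, adjusted p = 0.0188), Gbp2 (1.07 ± 0.27, adjusted p = 0.0387) and Irgm2 (0.84 ± 0.21, adjusted p = 0.0413), and the T cell chemokine gene Cxcl9 (1.26 ± 0.30, adjusted p = 0.0268). For higher genes in this comparison the share of all genes was 1.51%. Of the same 10 interferon gamma response genes 4 lay below control in Shp2lof skin, among them Irgm1 (-0.49) and Ifngr1 (-0.32).

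Class I presentation was read alongside. Of 10 tested genes 2 rose in Shp2lof skin: Tap2, a subunit of the peptide transporter, by 0.85 ± 0.15 (adjusted p = 0.00475), and Psmb9, a subunit of the immunoproteasome, by 0.85 ± 0.16 (adjusted p = 0.00901). Their median difference was 0.40, against 0.17 for the class II members and 0.02 for all genes. Of 7 other class I loci 0 passed, with H2-Q8 at 0.53 (adjusted p = 0.201) and H2-Q7 at 0.35 (adjusted p = 0.427). Of 9 genes of class II peptide loading and turnover 0 passed, with the endosomal protease genes Lgmn at -0.38 (adjusted p = 0.224) and Ctss, which trims Cd74, at 0.56 (adjusted p = 0.266).

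Some genes of the immune cell lists also rose in Shp2lof skin. They were Laptm5 of leukocytes (0.75 ± 0.15, adjusted p = 0.00904), 1 of 4 tested, Fcgr4 and Aif1 of myeloid cells (2.45 ± 0.22, adjusted p = 7.33e-06, and 1.01 ± 0.19, adjusted p = 0.00847), 2 of 13, Foxp3 of regulatory T cells (1.56 ± 0.16, adjusted p = 2.58e-05), 1 of 5, and Cd40, the costimulatory receptor of antigen-presenting cells (0.84 ± 0.18, adjusted p = 0.0188), 1 of 9 in the dendritic cell list. Of the 13 macrophage and monocyte genes 8 lay below control, among them Ly6c1 (-0.55) and Lyz2 (-0.37), and the median of that list was -0.10. Of 4 Langerhans cell genes 0 passed, with Itgae at 0.88 (adjusted p = 0.0606) and Cd24a at 0.36 (adjusted p = 0.410). With the leukocyte covariate, the class II median in Shp2lof against control was -0.10 in place of 0.17. All 4 Shp2lof arrays lay above every other array in that covariate, and Laptm5 is 1 of its 4 genes. Covariate and group can hardly be separated in this comparison, so the part of leukocytes in the difference remains untested. In Mek1gof against control 0 genes of any of these lists passed. In Double against control the genes that passed in these lists were 9 of 12 skeletal muscle genes, all lower (2.04% of all genes), among them Myot (-1.45 ± 0.25, adjusted p = 0.00485) and Ckm (-1.45 ± 0.32, adjusted p = 0.0169).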

How the data were processed

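Total RNA was labelled as biotinylated cRNA, per the labels' protocols. The deposited table gives, for 25697 probes, an intensity on a linear scale and a detection p-value for each array; the submitters' processing notes name GenomeStudio. Per the values, the deposited intensity had not been normalized. The value table deposited beside it matched these intensities to within 0.05.

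Here the function neqc (limma 3.58.1, R 4.3.3, offset 16) corrected the background, estimated from the detection p-values, quantile-normalized the arrays and took log2. Probes with a detection p-value below 0.05 on at least 4 arrays (14631, 56.9%) and 1 symbol (13765) were kept, and the probe with the highest mean stood for each of 10232 genes. Symbols came from the supplied platform table, updated through Entrez identifiers for 23962 probes. One limma model estimated the 4 group means from the 16 arrays (12 residual degrees of freedom, 5.74 from the prior), with Benjamini-Hochberg adjustment over all genes. Pearson's r was given without a test. Plots were drawn with matplotlib 3.10.9.

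The members, the other gene lists and the naming rule (every member; of other lists up to 4 genes past the threshold, or the 2 with the smallest p; 10 genes most alike) were chosen with earlier results of these data known. The alternatives were other normalizations, offsets and filters, other probe choices, array weights, blocks, single slides, covariates and each array left out. The fit was tested on simulated data with 10232 genes; of 158 calls 13 were false (8.23%). The number of arrays limits the precision.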

Additional observations from a re-analysis of the deposited data

Results flagged for a closer look

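Cd74 on Mek1gof 4 read 10.62, while the other Mek1gof arrays read 10.96 to 11.02; the gap was 0.865 of the group's range, above the 95% critical value of Dixon's test for 4 arrays. It was 1 of 44 sets of 4 arrays examined, where chance gives about 5%. The other Cd74 probe was also lowest of the Mek1gof arrays there (10.30).

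H2-Oa, which was left out of the tests for lack of detection, had a mean of 4.95 on the Mek1gof arrays (5.11, 4.90, 4.91 and 4.88), against 4.72, 4.43, 4.82 and 4.71 on the 4 control arrays. It was detected on 1 of the 4 Mek1gof arrays and on 0 control arrays, so no fold is given. Without the detection filter its Mek1gof minus control difference was 0.28 ± 0.09 (adjusted p = 0.378, limma).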

How the results depend on the processing

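The class II counts were 0 in all 7 comparisons and changed only in 3 of them. In Double against control 1 member passed without normalization, with the value table, with cyclic loess and with array weights (H2-Aa each time, adjusted p between 0.0273 and 0.0485, beside 2.45% to 5.3% of all genes), 3 passed on slide 2 alone, and 0 to 1 passed without 1 array. The 1 was H2-Aa without Mek1gof 2 (adjusted p = 0.0436) or Double 2 (0.0329), and Cd74 without Double 1 (0.0445). In Double against Shp2lof 2 passed without normalization and with the value table (H2-Aa and H2-Ab1) and on slide 2 alone (H2-Aa and H2-Eb1), 1 with array weights or with the muscle level as a covariate (H2-Aa), and 0 to 1 without 1 array (H2-Aa without Mek1gof 2, Double 2, control 2 or control 3, adjusted p at most 0.0497). In Double against Mek1gof 2 passed on slide 2 alone (H2-Aa and H2-Eb1). The cause of these changes was not tested. Of 1652 recomputed differences 67 changed sign, 54 of them smaller than 1 standard error, and 24 crossed the threshold. On slide 1 alone the Double minus control differences of H2-Ab1, H2-DMa and Ciita were 0.04, 0.08 and 0.00429, above 0. With the leukocyte level as a covariate H2-DMb1 in Shp2lof against control was -0.24 and the median of the interaction -0.003. In both, the covariate can hardly be separated from the Shp2lof group. The labels do not say that a replicate number marks a pair. Of 24 same-numbered pairs 9 had a correlation of deviations over 0.1, which does not make the numbers pairs here, while 10 of 16 arrays were closest to one of their own number, a hint from the data that same-numbered arrays, which share a slide, vary together. With the replicate block 0 members passed in every comparison, while 464 genes in place of 397 passed in Double against control and 85 in place of 52 in Mek1gof against control. A fit of only the groups compared does not exist for the interaction. H2-Oa, H2-Ob and Ciita lay too near the background for changes to be measured well.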

Other observations

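H2-T10, a nonclassical class I gene named after its values were seen, read 5.83, 4.88, 5.21 and 7.42 in Shp2lof skin, 7.53, 7.06, 5.10 and 4.62 in Mek1gof skin and 7.51, 5.41, 6.60 and 6.68 in Double skin, against 5.02, 4.55, 4.62 and 7.34 in control skin. Its levels spanned 2.98 and lay below and above a gap of 0.76, with 9 of 16 arrays below, and high and low arrays occurred in every group. The strain of each mouse's MHC is not given in the labels, and its part in these levels was not tested.

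H2-M2, a class I gene of the same chromosome, read 8.47, 8.35, 6.93 and 6.65 on Double 1 to 4, against 8.61, 8.69, 8.64 and 8.73 in control skin. The Double minus control difference was -0.24 on slide 1 and -1.90 on slide 2 (-1.07 ± 0.31 in all, adjusted p = 0.0607, limma). Double 3 and 4 were thus low for this gene as they were for the class II genes and Cd207. H2-T10 was not low there (6.60 and 6.68). Of the 7 tested class I loci of that list 0 passed in Double against control (3.88% of all genes). Between slides, 19.3% of all genes changed in Double minus control at an unadjusted p below 0.05 (limma).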
